A study of Rattus norvegicus with 6 samples.

Results

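The genes described here are 8 genes of pituitary progenitors and of the development of the gland, measured in whole pituitary glands of adult male rats after exposure to nicotine before birth. They are Sox2 and Sox9, factors of the pituitary stem cells, S100b, a marker of folliculostellate cells, and the organ factors Hesx1, Pitx1, Lhx3, Lhx4 and Six6. They were chosen by gene symbol for their roles, with earlier results of these data known. Each symbol was matched to 1 row among the 33294 gene symbols listed. Of the 8 genes, 7 had counts in all 6 libraries and were tested among 17292 genes that passed the filter on low counts. Hesx1 had no count in any library.

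Sprague-Dawley dams carried a subcutaneous 28-day osmotic pump that released nicotine tartrate in saline (6 mg/kg per day, nicotine group) or sterile saline alone (control group). Per the methods, birth came before the 28 days had passed, and removal of the pump at birth is not described. RNA of the pituitary gland was sequenced from 3 male offspring per group at 11 weeks of age, with 1 library per rat. The litter of each rat is not given in the sources used here, so litter and exposure could not be separated. Totals ranged from 28318383 to 85977002 counts per library, and the median total of the nicotine group was 1.70 times that of the control group. The study's list of read numbers by library code shows the opposite order, with more reads for the control codes. The totals here follow the read numbers of the other group's codes in the same order, at a nearly constant ratio. Groups follow the sample labels throughout, and an exchange of the labels would reverse the sign of every difference below without altering its size or p-value.

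The extraction notes of the samples describe testis, so the tissue was checked against marker genes. The hormone genes Gh1, Prl and Pomc had means of 74887, 31001 and 41194 CPM over the 6 libraries (CPM is the normalised count, scaled to a common library size). Of 10 testis germ cell markers, 3 were at 0 in every library, and the summed level of all 10 lay between 0.0991 and 0.406 CPM. The libraries thus carried the defining transcripts of the pituitary gland and next to none of the testis. In whole glands, fewer cells of a type and less RNA per cell cannot be told apart.

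The anterior and intermediate lobes of the pituitary gland grow from Rathke's pouch, an outgrowth of the oral ectoderm, and the posterior lobe grows from the floor of the brain. The homeodomain factors Pitx1, Hesx1, Lhx3, Lhx4 and Six6 act in the pouch, where they set up the organ and control the growth of its progenitors. In the adult gland Sox2 marks a population of stem cells along the cleft and in the parenchyma, many of which also make Sox9, and part of which make the calcium-binding protein S100b. Sox2, Sox9 and S100b are also made by glial cells, so in a whole gland part of their transcripts can come from the pituicytes of the posterior lobe.

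Promoter sequences were held for 6 of the 8 genes in RefSeq on the build GRCr8, and the windows ran from 250 bases before the annotated start to 50 bases after it. They are shown for the gene without counts, for Sox2, the highest of its libraries in nicotine replicate 2, and for Six6 and S100b, both lowest in that library. Each line gives the 100 bases just before the start, 5′ to 3′ on the strand of the gene, with CG dinucleotides in capitals.
Hesx1, chr16:2198489-2198588, plus strand: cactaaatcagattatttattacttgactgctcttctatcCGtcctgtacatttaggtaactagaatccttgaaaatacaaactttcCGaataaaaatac
Sox2, chr2:119465031-119465130, plus strand: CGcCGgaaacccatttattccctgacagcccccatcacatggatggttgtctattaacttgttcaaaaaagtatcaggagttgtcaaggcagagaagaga
Six6, chr6:97370335-97370434, plus strand: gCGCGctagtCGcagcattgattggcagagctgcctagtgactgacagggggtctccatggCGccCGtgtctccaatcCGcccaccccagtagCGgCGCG
S100b, chr20:12381082-12381181, minus strand: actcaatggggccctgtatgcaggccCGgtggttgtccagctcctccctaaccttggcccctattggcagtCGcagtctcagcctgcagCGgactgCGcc

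The windows of Sox2, Lhx4 and Six6 held 23, 22 and 24 CG dinucleotides in 300 bases, against a median of 7 over 33465 promoters of the same length. Those of Hesx1 and S100b held 5 each, and that of Lhx3 held 9. The Hesx1 window also had the lowest content of G and C of the 6, at 34.7%, where the median of all promoters was 51.7%. The letters CCAAT, on either strand, were present in the windows of Sox2, S100b and Six6 and in 37.5% of all promoters. The letters TATAAA were present in the Hesx1 window alone among the 6, and in 14.2% of all promoters. The letters TAATCC (7.17% of promoters), TAATTA (5.36%) and CATTGT (13.2%) were in none of the 6 windows. These are matches of letters and not binding sites.

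Hesx1 encodes a repressor of the homeodomain class that acts early in Rathke's pouch. It was listed at 0 counts in all 3 nicotine and all 3 control libraries. A count of 0 allows up to 3 counts, which corresponds to 0.0326 to 0.111 CPM depending on the library, by counting error only. The row shares this state with 8748 of the listed genes, or 26.3%. Its nearest protein-coding neighbours on GRCr8, Appl1 and Il17rd, were detected in every library, with 2815 to 9590 and 463 to 3085 counts. No other gene annotated on that build overlapped Hesx1. Whether the zero comes from the annotation or counting of this gene was not tested. No group difference could be computed for Hesx1.

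**Figure D1:**
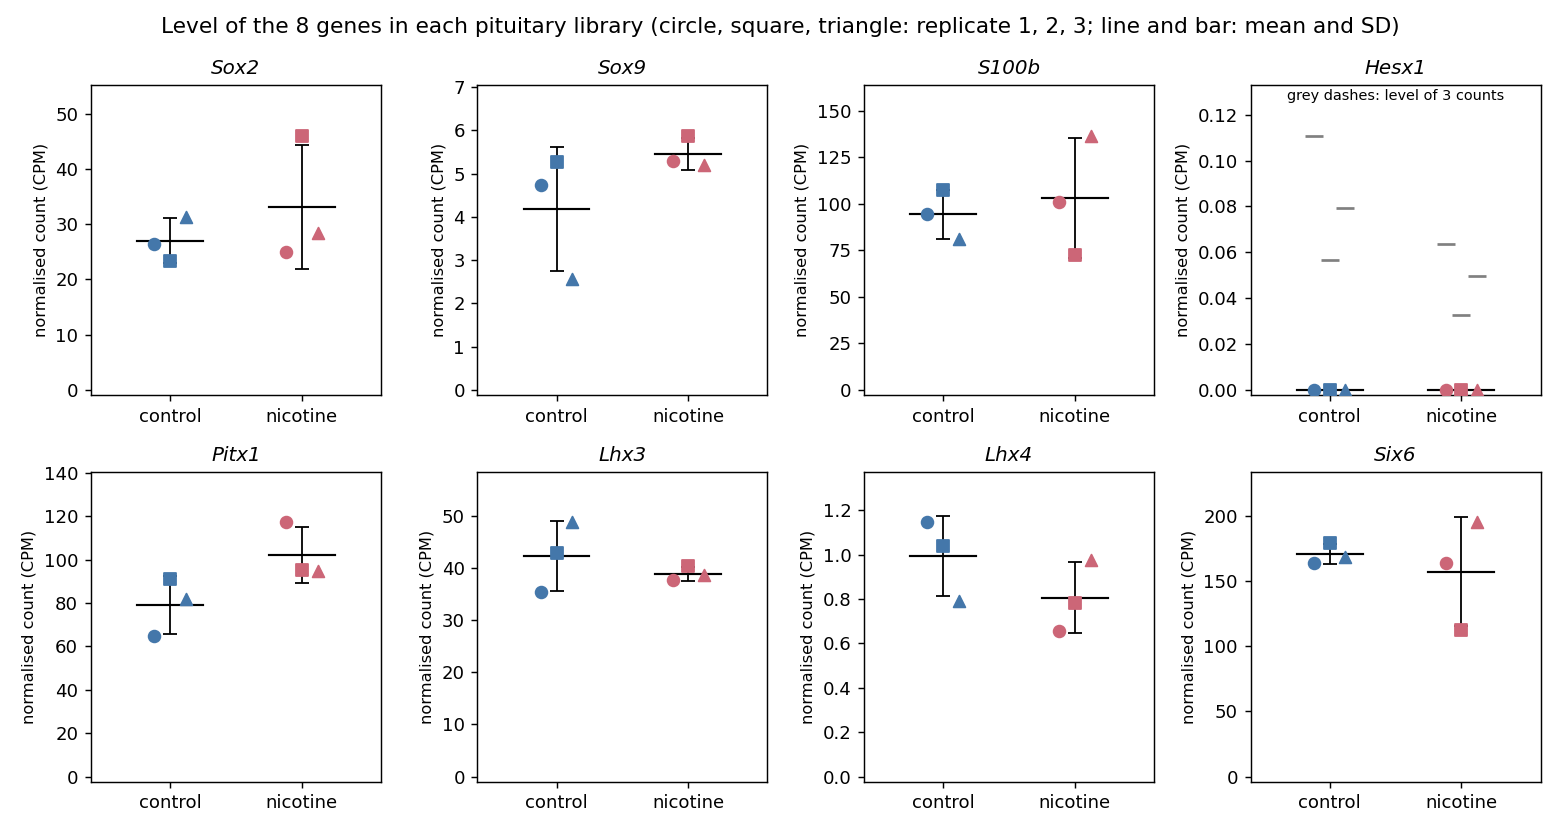
Normalised counts (CPM, linear axis from 0) of the 8 genes in the 3 control (blue) and 3 nicotine (red) libraries, with the mean and SD of each group as black lines; grey dashes in the Hesx1 panel mark the level that 3 counts would give in each library. The groups overlap for each gene with counts but Pitx1, and single libraries stand out for Sox2 (nicotine replicate 2, 46.0 CPM), Sox9 (control replicate 3, 2.56 CPM) and Six6 (nicotine replicate 2, 112 CPM).

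Sox2 encodes the transcription factor that keeps the pituitary stem cells in an undifferentiated state. Its level was 24.9, 46.0 and 28.4 CPM in nicotine replicates 1, 2 and 3, and 26.4, 23.3 and 31.3 CPM in control replicates 1, 2 and 3. Nicotine replicate 2 was above all other libraries, and the remaining libraries of the groups were interleaved. Nicotine libraries averaged 33.1 ± 11.3 CPM and control libraries 27.0 ± 4.04 CPM (SD, n = 3 each). The log2 fold change was 0.30 (standard error 0.23, 95% interval -0.22 to 0.81, adjusted p = 0.841 from edgeR). Without nicotine replicate 2 the log2 fold change was -0.024, so the direction rested on that library. A long non-coding gene, LOC103691527, overlaps Sox2 in the annotation, and the strand setting of the counting is not given in the sources used here. This gene did not share the high value, with 8.59 CPM in nicotine replicate 2 against 7.19 to 12.8 CPM in the other libraries.

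Sox9 encodes a related factor that is found in much of the Sox2 population and in glia. Its level was 5.28, 5.87 and 5.19 CPM in the nicotine libraries, and 4.73, 5.28 and 2.56 CPM in the control libraries. The nicotine libraries lay close together, with a coefficient of variation of 6.81%, and control replicate 3 was the lowest of all. Nicotine libraries averaged 5.45 ± 0.371 CPM and control libraries 4.19 ± 1.44 CPM (SD, n = 3 each). The difference on the log2 scale was 0.38 (standard error 0.28, 95% interval -0.23 to 0.99, adjusted p = 0.840 from edgeR). Without control replicate 3 it was 0.12. Sox9 had the largest variation of the tested members over the 6 libraries, with a 2.29-fold range and an SD of 0.43 on the log2 scale. This SD was above that of 74.2% of all genes tested.

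S100b encodes a calcium-binding protein of folliculostellate cells, the non-endocrine supporting cells of the anterior lobe, and of glia. Its level was 101, 72.3 and 136 CPM in the nicotine libraries, and 94.6, 107 and 81.0 CPM in the control libraries. Nicotine replicates 2 and 3 were the lowest and the highest of all 6, so the control libraries fell inside the range of the nicotine group. The means were 103 ± 32.2 CPM in the nicotine group and 94.2 ± 13.0 CPM in the control group (SD, n = 3 each), for a log2 fold change of 0.13 (standard error 0.22, 95% interval -0.36 to 0.62, adjusted p = 0.920 from edgeR). Leaving out nicotine replicate 3 gave -0.12, and leaving out nicotine replicate 2 gave 0.32. On GRCr8 the annotation of Dip2a overlaps S100b, and Dip2a was at 14.3 to 22.3 CPM, with its own order of libraries.

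Pitx1 encodes a homeodomain factor that is active from the oral ectoderm onwards and stays on in the adult gland, where it acts on hormone gene promoters. It was at 117, 95.1 and 94.7 CPM in the nicotine libraries, and at 64.7, 91.0 and 81.8 CPM in the control libraries. The lowest nicotine library, replicate 3, still exceeded the highest control library, replicate 2, by a few CPM, so the groups did not overlap. The means were 102 ± 12.8 CPM in the nicotine group and 79.2 ± 13.4 CPM in the control group (SD, n = 3 each). On the log2 scale the difference was 0.37 (standard error 0.17, 95% interval -0.02 to 0.75), and it did not pass the test, with an unadjusted p of 0.0582 and an adjusted p of 0.809 from edgeR. The exact two-sided permutation test gave p = 0.1, the smallest this design can give. Leaving out control replicate 1, the lowest library, gave a log2 fold change of 0.24, and leaving out control replicate 2 gave 0.48.

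Lhx3 and Lhx4 are paralogous LIM homeodomain factors that act together in the growth of the pouch. Lhx3 was at 37.7, 40.3 and 38.7 CPM in the nicotine libraries, and at 35.4, 42.8 and 48.8 CPM in the control libraries. It was the steadiest of the members, with a 1.38-fold range, and its SD of 0.16 on the log2 scale exceeded that of only 15.7% of the genes tested. The means were 38.9 ± 1.33 CPM in the nicotine group and 42.3 ± 6.69 CPM in the control group (SD, n = 3 each). Its log2 fold change was -0.12 (standard error 0.16, 95% interval -0.48 to 0.24, adjusted p = 0.896 from edgeR). Leaving out control replicate 3 brought it to -0.01.

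Lhx4 was counted 31, 72 and 59 times in the nicotine libraries, and 31, 55 and 30 times in the control libraries. After normalisation this was 0.658, 0.782 and 0.975 CPM after nicotine and 1.14, 1.04 and 0.792 CPM in controls. Control replicates 1 and 2 were above all nicotine libraries, and control replicate 3 lay among them. The means were 0.805 ± 0.160 CPM in the nicotine group and 0.992 ± 0.181 CPM in the control group (SD, n = 3 each). The log2 fold change was -0.29 (standard error 0.34, 95% interval -1.02 to 0.45, adjusted p = 0.881 from edgeR). This was the widest interval of the members and still allowed a fold change over 1.5 in the lower direction. On GRCr8 the annotation of LOC120096286 overlaps Lhx4, and LOC120096286 had 0 to 3 counts per library.

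Six6 encodes a homeodomain factor of the pituitary, hypothalamus and retina that controls the number of progenitors. Its level was 164, 112 and 195 CPM in the nicotine libraries, and 164, 179 and 169 CPM in the control libraries. The control libraries lay close together, with a coefficient of variation of 4.52%, against 26.5% in the nicotine group. Nicotine replicate 2 was the lowest and nicotine replicate 3 the highest of all. The means were 157 ± 41.7 CPM in the nicotine group and 170.4 ± 7.71 CPM in the control group (SD, n = 3 each). The log2 fold change was -0.12 (standard error 0.20, 95% interval -0.56 to 0.32, adjusted p = 0.920 from edgeR), and leaving out nicotine replicate 2 turned it to 0.066.

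The comparison asked whether the nicotine and control glands differed in these genes. Both cut-offs had to be met together for a call, namely an adjusted p under 0.1 and an absolute change over 1.5-fold. Of the 7 members tested 0 were called, in a fit that called 0% of all genes. DESeq2, which called 62 genes or 0.347% of those with an adjusted p, also called 0 members. An unadjusted p under 0.05 was reached by 0 members in edgeR and 0 in DESeq2, against 6.14% of all genes tested in edgeR. The groups did not overlap for 1 member of 7, against 11.3% of all genes. Values were higher after nicotine for 4 members and lower for 3, with a median log2 fold change of 0.13 against 0.01 for all genes tested. The intervals of Lhx3 and Six6 lay inside a fold change of 1.5 in both directions. Those of Sox2, Sox9, S100b and Pitx1 reached beyond it in the higher direction, and that of Lhx4 in the lower direction, so a difference of that size in that direction cannot be set aside for these genes.

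**Figure D2:**
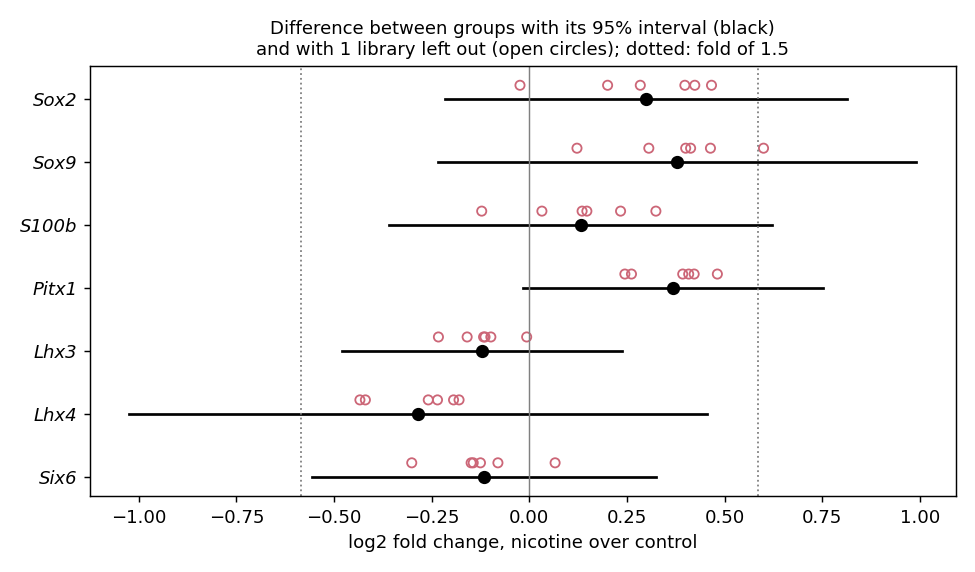
Log2 fold change of nicotine over control for the 7 genes with counts (black points) with the 95% interval from edgeR (black bars), and the same value with each library left out in turn (open red circles); dotted lines mark a fold change of 1.5 in either direction. Each black bar crosses 0, and the open circles of Sox2, S100b and Six6 lie on both sides of 0.

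No pair of members passed the test for a shared pattern from gland to gland. Of 21 pairs of the 7 genes tested, 0 had an adjusted p under 0.05 for Pearson's r over the 6 libraries (exact permutation test over the libraries, two-sided, Benjamini-Hochberg over the pairs, smallest adjusted p = 0.671). The stem cell factors Sox2 and Sox9 had r = 0.03 (rho = -0.03, exact permutation p = 0.938 and 1, adjusted p = 0.946 and 1). Single libraries set this value, since r was -0.79 without nicotine replicate 2 and 0.72 without control replicate 3. The paralogs Lhx3 and Lhx4 had r = -0.25 (rho = -0.14, exact permutation p = 0.639 and 0.803, adjusted p = 0.946 and 1). The only pair with an unadjusted p under 0.05 was S100b and Six6, with r = 0.82 (rho = 0.83, exact permutation p = 0.0458 and 0.0583, adjusted p = 0.671 and 0.408). It dropped to r = 0.38 without nicotine replicates 2 and 3 together, so the relation rested on that pair of libraries. With any single library left out r lay between 0.80 and 0.95, and it was 0.93 over deviations from the group means. Sox2 and Six6 had r = -0.84 (rho = -0.37, exact permutation p = 0.0958 and 0.497, adjusted p = 0.671 and 1), and r was 0.33 without nicotine replicate 2 and control replicate 2.

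The genes with the most similar pattern were sought for the 3 members that varied most. Likeness was the root mean square difference between log2 CPM over the 6 libraries, each gene being centred on its own mean. For Sox9 the nearest genes were Trim54, Tnfsf13 and Spry1, at differences of 0.08 each. For Sox2 they were Btbd11, Gaa and Cand2, at 0.03, 0.04 and 0.04. For S100b they were Dclre1c, Loxl2 and Zfp385d, at 0.07 each. These are the closest of all genes tested over only 6 libraries, and no stem cell marker of the lists below was among them.

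Markers of the lobes were read beside the members, because the share of each lobe can differ between dissected glands. The lists here and below were chosen with earlier results of these data known, so their counts are descriptive only. Rax, Nkx2-1 and Lhx2, transcription factors of the posterior lobe and its pituicytes, were lowest in control replicate 3, at 0.291, 0.185 and 0.660 CPM. In the other libraries they ranged from 2.97 to 11.2, from 1.36 to 4.70 and from 2.42 to 7.90 CPM, with the highest value of each in nicotine replicate 2. Of 11 pituicyte and posterior lobe markers, all tested, 0 were called, and 6 had higher values after nicotine with an unadjusted p under 0.05 against 3.13% of all genes in that direction. Their summed level was 227 to 463 CPM after nicotine and 133 to 265 CPM in controls, with overlap, and their median log2 fold change was 1.29. With DESeq2 the count was 2. In edgeR it was 4, with a median of 0.82, when control replicate 3 was left out, 3 when control replicate 2 was, and 2, with a median of 1.01, when nicotine replicate 2 was. Without nicotine replicate 3 it was 4, and without nicotine replicate 1 it was 6, with a median of 1.52. Without control replicate 1 it was 7, with a median of 1.98, and 1 marker had lower values at that cut-off. Gfap and Aqp4 of the list did not share this order, and Slc1a3 and Scn7a shared part of it. Slc1a3 was lowest in control replicate 3 (61.3 CPM) and highest in nicotine replicate 3 (106 CPM). Scn7a was highest in nicotine replicate 2 (100 CPM) and lowest in nicotine replicate 1 (49.1 CPM). Gfap, the filament protein of astrocytes and pituicytes, was at 4.46, 4.21 and 6.00 CPM after nicotine and at 3.10, 14.8 and 4.70 CPM in controls (log2 fold change -0.66). Aqp4, a water channel of glia, was at 9.35 CPM in control replicate 3, within the 7.21 to 11.0 CPM of the other libraries. Sox9 was lowest in the same library, control replicate 3, and highest in nicotine replicate 2. S100b, which these cells also make, was lowest in nicotine replicate 2. The part of the posterior lobe in the values of Sox2, Sox9 and S100b was not tested.

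Melanotrophs are the Pomc cells of the intermediate lobe, which borders the cleft where Sox2 cells lie. Their factor Pax7 was at 93.6 CPM in control replicate 3 and at 12.5 to 47.9 CPM in the other libraries, and Oacyl was at 201 CPM against 21.2 to 69.7 CPM. Control replicate 3 thus held the highest levels of these melanotroph markers and the lowest levels of the posterior lobe factors. In that library Sox2 was the second highest, at 31.3 CPM, and Lhx3 the highest, at 48.8 CPM. Of the 4 melanotroph markers 0 were called, and the summed level was 192 to 348 CPM after nicotine and 288 to 728 CPM in controls. Their median log2 fold change was -0.73, and 0.11 without control replicate 3. An unadjusted p under 0.05 in edgeR was reached by 1 of them, Pcsk2, a hormone-processing protease (log2 fold change -0.67). The share of all genes with lower values at that cut-off was 3.01%. With 1 library left out 0 to 3 of the markers reached it, 3 being without nicotine replicate 2. Among 7 hormone genes 0 were called. Of these only the gonadotropin subunit Lhb had an unadjusted p under 0.05 in edgeR (log2 fold change 1.83), against 3.13% of all genes in that direction. Lhb was at 820 CPM in nicotine replicate 2 and at 75.6 to 223 CPM in the other libraries. In DESeq2 an unadjusted p under 0.05 was also given to Pomc, the hormone precursor of melanotrophs and corticotrophs (log2 fold change -0.70, unadjusted p = 0.0197 from DESeq2 and 0.332 from edgeR), and to Cga, the shared glycoprotein hormone subunit (log2 fold change 0.50, unadjusted p = 0.0405 from DESeq2).

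**Figure D3:**
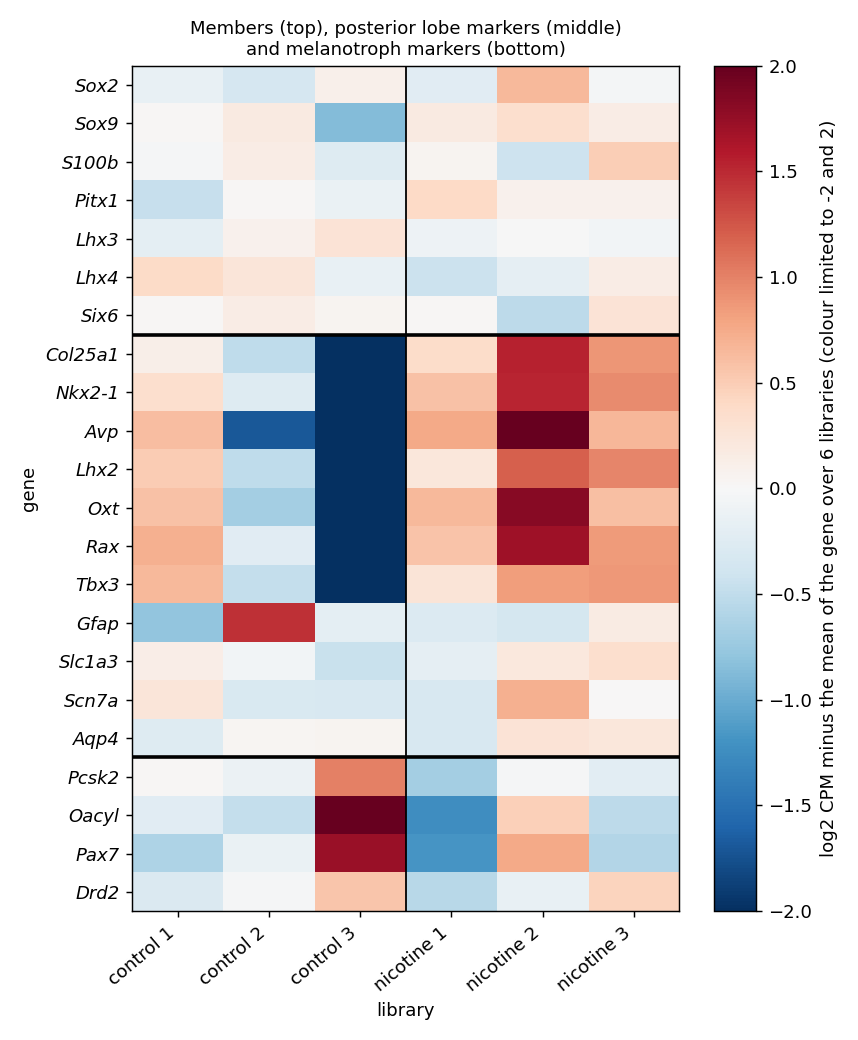
Colour map of log2 CPM minus each gene's mean over the 6 libraries (red above, blue below the mean, colour limited at -2 and 2), with libraries in columns and the 7 members with counts, 11 posterior lobe markers and 4 melanotroph markers in rows. Control replicate 3 is blue for Rax, Nkx2-1, Lhx2 and Sox9 and red for Pax7 and Oacyl. The members span a narrower range than Rax, Nkx2-1, Lhx2, Pax7 and Oacyl, though not than every lobe marker drawn.

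S100b is also made by Schwann cells and oligodendrocytes. Of 11 markers of these cells 7 were tested and 0 called. In edgeR Sox10, a factor of both cell types, was the only one with an unadjusted p under 0.05 (log2 fold change 1.15). The share of all genes in that direction was 3.13%. With 1 library left out 0 or 1 genes of the list had higher values at that cut-off, and 0 to 2 had lower values. DESeq2 gave 1 gene in each direction. The summed level of the 11 markers was 31.1 to 37.4 CPM after nicotine and 27.0 to 95.2 CPM in controls. The highest was control replicate 2, in which Mbp was at 61.4 CPM. S100b was also highest among the controls in that library, at 107 CPM. Over all 6 libraries S100b was highest in nicotine replicate 3, at 136 CPM, where the summed markers were at 35.5 CPM. The defining oligodendrocyte marker Olig1 had 53 counts (0.575 CPM) in nicotine replicate 2, the library with the highest Sox2 level, 14 in control replicate 2 and 0 or 1 in the others. Olig2 had 13 counts in nicotine replicate 2 and 0 or 1 in the others. The part of these cells in the values of the members was not tested. Markers of meninges and fibroblasts were lower after nicotine in the summed level, at 341 to 610 CPM against 679 to 939 CPM. Of these 10 genes 0 were called in edgeR, and 7 had lower values with an unadjusted p under 0.05 against 3.01% of all genes in that direction. This count was 3 without control replicate 2 and between 6 and 9 with any other library left out. DESeq2 called 1 of them, Foxd1, a factor of the stroma around the developing pituitary, with a log2 fold change of -1.13 (adjusted p = 0.702 from edgeR and 0.0212 from DESeq2).

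Other genes of pituitary development were described from a list of 37 factors and signals, all of which passed the filter. Of these 0 were called, 29 had higher and 8 lower values after nicotine, and the median log2 fold change was 0.19. Over all genes tested 8824 had higher and 8468 lower values, with a median of 0.01. An unadjusted p under 0.05 was reached by 3 genes, all with higher values, against 3.13% of all genes in that direction. The genes of the list are not independent of each other, and the split was not tested. The 3 were Fgfr2 and Fgfr1, receptors for the fibroblast growth factors that sustain the pouch, and Msx1, a homeodomain factor. Fgfr2 was at 11.0, 16.0 and 16.7 CPM after nicotine and at 9.00 to 10.6 CPM in controls. Its groups did not overlap (log2 fold change 0.57 ± 0.21 SE, edgeR adjusted p = 0.782). Fgfr1 was at 103, 141 and 119 CPM after nicotine and at 91.7, 93.0 and 82.2 CPM in controls, again without overlap (log2 fold change 0.44 ± 0.16 SE, edgeR adjusted p = 0.783). Msx1 was at 30.0, 43.6 and 33.2 CPM after nicotine and at 24.7, 25.5 and 29.5 CPM in controls (log2 fold change 0.42 ± 0.18 SE, edgeR adjusted p = 0.806). The median of the list moved to 0.11 when nicotine replicate 2 was left out, and to 0.26 when nicotine replicate 1 was.

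**Figure D4:**
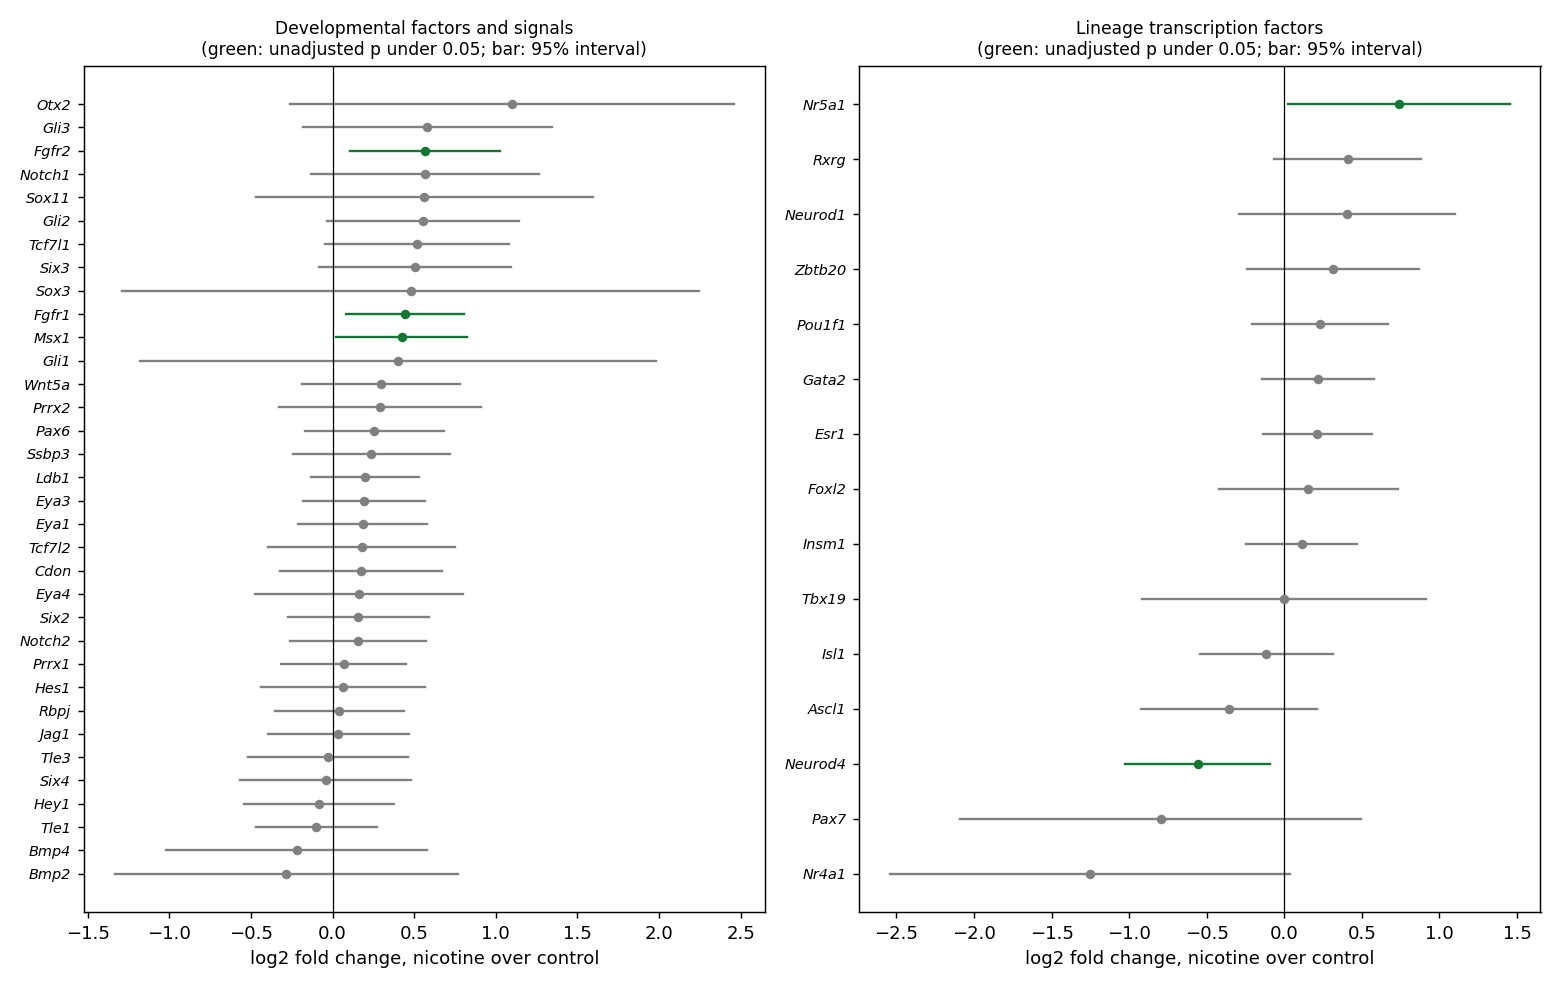
Log2 fold change of nicotine over control with its 95% interval from edgeR for 34 of the 37 developmental factors and signals (left) and 15 lineage transcription factors (right), ordered by value; green marks an unadjusted p under 0.05. On the left 28 points lie to the right of 0 and the 3 green points are Fgfr2, Fgfr1 and Msx1, and on the right the green points are Nr5a1 and Neurod4.

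Downstream of the members, 15 transcription factors that direct the hormone lineages were all tested and 0 were called. Neurod4, a bHLH factor of the somatotroph lineage, was at 73.0, 67.2 and 83.7 CPM after nicotine and at 146, 81.2 and 103 CPM in controls (log2 fold change -0.56 ± 0.21 SE, edgeR adjusted p = 0.785). Its groups overlapped, and control replicate 1 was the highest library. Without control replicate 1, or without nicotine replicate 1, 0 genes of the list had lower values with an unadjusted p under 0.05 in edgeR. Nr5a1, the nuclear receptor of gonadotrophs, was at 13.6, 32.9 and 13.0 CPM after nicotine and at 11.6, 11.5 and 12.6 CPM in controls. Its groups did not overlap, and nicotine replicate 2, the library with the highest Sox2 level, carried the difference (log2 fold change 0.74 ± 0.32 SE, edgeR adjusted p = 0.806). Pou1f1, the factor of the somatotroph, lactotroph and thyrotroph lineages, was at 251 to 412 CPM, with overlapping groups. The median log2 fold change of the list was 0.16. An unadjusted p under 0.05 in edgeR was reached by 1 gene with higher values, Nr5a1, and 1 with lower values, Neurod4. The shares of all genes were 3.13% and 3.01% in these directions. With 1 library left out 0 to 2 genes of the list reached that cut-off in each direction.

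Further markers of stem cells and folliculostellate cells were read from a list of 23 symbols, of which 21 were in the files and 20 were tested. The symbols not found, Ctgf and Cyr61, are earlier names of Ccn2 and Ccn1, which the list also held. Of the 20 tested 0 were called, 12 had higher and 8 lower values after nicotine, and the median log2 fold change was 0.07. An unadjusted p under 0.05 was reached by 3 genes with higher values, against 3.13% of all genes in that direction. With 1 library left out the count was 1 to 3, being 1 without nicotine replicate 3 or control replicate 3, and the median was -0.07 to 0.24. Nes, an intermediate filament of progenitors that vessels and glia also make, was at 10.5, 3.77 and 7.85 CPM after nicotine and at 2.84, 4.14 and 3.54 CPM in controls (log2 fold change 1.04 ± 0.35 SE, edgeR adjusted p = 0.760). Ednrb, an endothelin receptor, was at 19.1, 23.4 and 25.1 CPM after nicotine and at 14.5, 18.6 and 12.1 CPM in controls (log2 fold change 0.57 ± 0.20 SE, edgeR adjusted p = 0.763). Gfra2, a co-receptor that marks pituitary stem cells, was at 1.74, 1.57 and 1.70 CPM after nicotine and at 0.886, 1.12 and 1.00 CPM in controls (log2 fold change 0.71 ± 0.29 SE, edgeR adjusted p = 0.806). Sox2, the defining factor of the same cells, overlapped between the groups. The epithelial marker Epcam was at 390 to 504 CPM after nicotine and 484 to 510 CPM in controls.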

How the data were processed

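RNA-seq counts were available for 6 libraries, 3 per group. Per the labels and methods, the authors mapped paired-end reads of strand-specific libraries to the rat genome rn7 with HISAT2 2.1.0 and counted them with featureCounts on the UCSC ncbiRefSeq annotation. The deposited values are raw counts per gene symbol. The strand setting, the treatment of reads shared between genes, and the unit (reads or pairs) are not given in the sources used here. Reads shared by overlapping or related genes may therefore be missing or misplaced.

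The software was edgeR 4.0.16, DESeq2 1.42.0 and limma 3.58.1, run under R 4.3.3. Genes were filtered with filterByExpr, library sizes were scaled by TMM factors (0.957 to 1.07), and the nicotine and control groups were tested by quasi-likelihood in edgeR, with group as the only term. Adjusted p-values (Benjamini-Hochberg) are over all 17292 genes tested. The procedure was tested on simulated data with planted changes larger than any difference of the members. That test therefore gives no measure of power for differences of the size seen here. Standard errors were derived from the edgeR test, as the absolute log2 fold change divided by the square root of its F statistic. The 95% intervals were built from these standard errors with the t distribution. Log2 CPM used a prior count of 2. The p-values of the group comparison set the difference between groups against the spread between rats within the groups, over these 6 rats. Levels were compared within a gene only, because transcript lengths were not used.

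The members and the 9 marker lists were chosen with earlier results of these data known. The genes named are the members, up to 3 genes of a list with the smallest p and up to 3 with the highest mean CPM, markers of other cells, overlapping genes and the genes of most similar pattern. Dip2a, LOC103691527, LOC120096286, Appl1 and Il17rd were added after their values were seen. Alternatives were DESeq2, RLE factors, library sizes alone, no filter, the replicate number as a block, voom with quality weights and leaving out each library. edgeR's older fit was added after seeing the data. RefSeq sequences and neighbours are from GRCr8, matched by symbol. Single values of 3 genes of the developmental list are not reported here, though its counts include them.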

Additional observations from a re-analysis of the deposited data

How the results depend on the processing

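The number of genes called over the whole table was 0 in edgeR, 62 with DESeq2, 1 with library sizes alone, 2 without a filter, 2 with the replicate number as a block, 1 with voom and sample quality weights, and 0 to 9 with 1 library left out. In each of these settings 0 members were called. Members with an unadjusted p under 0.05 numbered 0, but 1 with library sizes alone and 0 to 1 with 1 library left out, the member being Pitx1 each time, without nicotine replicate 2 or control replicate 2 in the latter case. Of 91 comparisons of a member with an alternative, 88 kept their direction and 3 reversed. With 1 library left out the log2 fold change ranged from -0.024 to 0.47 for Sox2, from -0.12 to 0.32 for S100b and from -0.30 to 0.066 for Six6. With 1 library left out r ranged from -0.93 to 0.083 for Sox2 and Six6, from -0.79 to 0.72 for Sox2 and Sox9, from -0.66 to 0.16 for Lhx3 and Lhx4 and from 0.80 to 0.95 for S100b and Six6, and for Sox2 and Sox9 it was -0.25 over the deviations from each group mean. Same-numbered libraries were not treated as pairs, as their deviations correlated at 0.03, -0.20 and -0.08, and the block changed no other call. The cause was not tested for any of these. With 3 libraries per group and an SD of up to 34.3% of the mean for a member, the 95% intervals of 5 members reached past a fold change of 1.5, and Lhx4 had only 30 to 72 counts per library.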
